A study of Rattus norvegicus with 24 samples.

Results

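The question addressed was whether neonatal intermittent hypoxia (IH) altered the transcriptional response of microglia to lipopolysaccharide (LPS), which is the interaction of oxygen with LPS. It was measured as the LPS effect in IH samples minus the LPS effect in normoxic (Nx) samples, averaged over males and females with equal weight, and it used all 24 of the 24 samples in the series. A negative interaction means that the LPS effect was lower, on the log2 scale, after IH than in Nx. Microglia, isolated with magnetic beads against CD11b/c from the brains of Sprague-Dawley rats at postnatal day 9 with the cerebellum and olfactory bulbs removed, came from 8 groups of 3 samples. Male and female pups had been kept with their dams from postnatal day 1 in Nx (21% oxygen) or in IH, in which oxygen alternated between 21% and 10.5% in 2-min cycles for 8 h per day over 8 days. About 16 h after the last exposure they received vehicle or LPS, and the cells were taken 3 h later. The design text of the series and the study's methods give the LPS dose as 0.1 mg/kg, whereas the sample labels give 0.1 mg/mL and name saline where the methods name HBSS. The 8 groups were therefore male and female Nx, Nx LPS, IH and IH LPS, and no group carried a transgene. The methods describe the 3 samples of each group as biological replicates and do not say whether they came from separate litters, so the p-values measure the spread between these samples.

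Microglia, the macrophages that reside in brain tissue, are its first responders to infection. LPS, a component of the outer membrane of Gram-negative bacteria, is sensed by Toll-like receptor 4, which activates NF-κB and interferon regulatory factors, and these induce cytokines, chemokines, adhesion molecules and enzymes of prostaglandin synthesis. IH is the oxygen pattern of sleep apnea and of apnea of prematurity, and oxygen supply is one of the conditions known to act on inflammatory signaling in myeloid cells.

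Samples had 6624453 to 8548714 reads on genes (median 7532796.5) and TMM factors, which scale the libraries to each other, from 0.9172 to 1.078. Alignments to more than 1 place made up 11.71% to 23.37% of a sample's records, and male Nx replicate 2, at 23.37%, stood apart. No pair of samples within a group differed by less than a chi-square per degree of freedom of 7.93, where sampling noise gives 1. The label of microglia could not be checked against its markers, because the files hold Ensembl identifiers without names and only the 21 identifiers that the study pairs with a name could be named. In libraries made from all isolated cells, fewer cells of a type and less RNA per cell cannot be told apart. Of the LPS samples, male Nx LPS replicate 2 and male IH LPS replicate 3 had the lowest Cxcl10 (123 and 23.1 CPM) and the smallest median change of the genes raised by LPS (0.336 and 0.226 on the log2 scale). They are called weakly responding here, and values without both are given beside several results. Female IH LPS replicate 2 came close in that median change (0.364) but had higher Cxcl10 (440 CPM), and it was kept in those fits.

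No gene passed the threshold for the interaction. Of 12860 genes tested with the quasi-likelihood F test of edgeR, 0 had a false discovery rate (FDR) below 0.05 (0%), and the smallest adjusted p was 1. At an unadjusted p below 0.05 there were 182 genes, where 643 would be reached by chance, 96 with a positive interaction (0.747% of those tested) and 86 with a negative one (0.669%). The same count at an unadjusted p was 185 with edgeR's likelihood ratio test, 192 with DESeq2 and 1507 with limma-voom and sample weights, each with 0 genes past the FDR threshold. With single samples left out it ran from 123 to 464. The highest counts were 464 without male Nx LPS replicate 2 and 345 without male IH LPS replicate 1. The interaction of the median gene was 0.02 on the log2 scale, and the 5th and 95th percentiles were -0.46 and 0.55. The median standard error was 0.27, so for a typical gene an interaction of that size was not detectable with 3 samples per group. Within males alone, 0 genes had an FDR below 0.05 and 180 an unadjusted p below 0.05, and within females alone the counts were 0 and 229. The difference of the interaction between females and males, tested in the same edgeR fit, also gave 0 genes past the threshold (0%), with 201 at an unadjusted p below 0.05.

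Although single genes did not pass, the interactions were not spread evenly over the genes that LPS changed. The LPS effect averaged over both oxygen arms and both sexes passed the threshold for 3130 genes (24.3% of those tested), and choosing genes on this average treats the arms alike. Among the 1669 genes raised by LPS, 1301 (78%) had a negative interaction, against 45.2% of all tested genes. The median interaction of the raised genes was -0.13, with quartiles of -0.28 and -0.015, beside 0.02 for all genes. Their median LPS effect was 0.68 on the log2 scale in Nx and 0.54 in IH. Among the 1461 genes lowered by LPS the sign was the opposite, as 76.7% had a positive interaction and the median was 0.135, from an LPS effect of -0.60 in Nx and -0.43 in IH. The 9730 genes that did not pass for LPS had a median interaction of 0.03, and 42.9% of them were negative. Genes of one response move together in a sample, so these shares are descriptions of the 24 samples and carry no p.

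The median interaction of the raised genes differed with the size of their LPS effect. It was -0.11 for the 1188 genes raised by less than 1 on the log2 scale, -0.25 for the 314 genes raised by 1 to 2, -0.43 for the 134 genes raised by 2 to 4, and -0.34 for the 33 genes raised by 4 or more. The quartiles of the last class, -0.73 and 0.07, included 0. Both sexes had this direction: of the raised genes 71.1% were negative in males (median -0.15) and 68.4% in females (median -0.13), and of the lowered genes the negative share was 24.5% in males and 36.7% in females. With single samples left out, the negative share of the raised genes lay between 69.3% (without male IH LPS replicate 3) and 83.9% (without male IH LPS replicate 1). It was 70.4% without female IH LPS replicate 2, and 77.7% without the 2 weakly responding libraries. Their median interaction lay between -0.198 (without male IH LPS replicate 1) and -0.0871 (without male Nx LPS replicate 3). The positive share of the lowered genes lay between 65.3% and 82.1%, and their median fell from 0.135 to 0.0709 without male IH LPS replicate 3 and was 0.201 without male Nx LPS replicate 2. At an unadjusted p below 0.05 there were 30 negative and 4 positive interactions among the raised genes, and 4 negative and 33 positive ones among the lowered genes. The negative ones were 1.8% of the raised and 0.274% of the lowered genes, beside 0.669% of all tested genes, and 0.747% of all tested genes had a positive one.

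**Figure D1:**
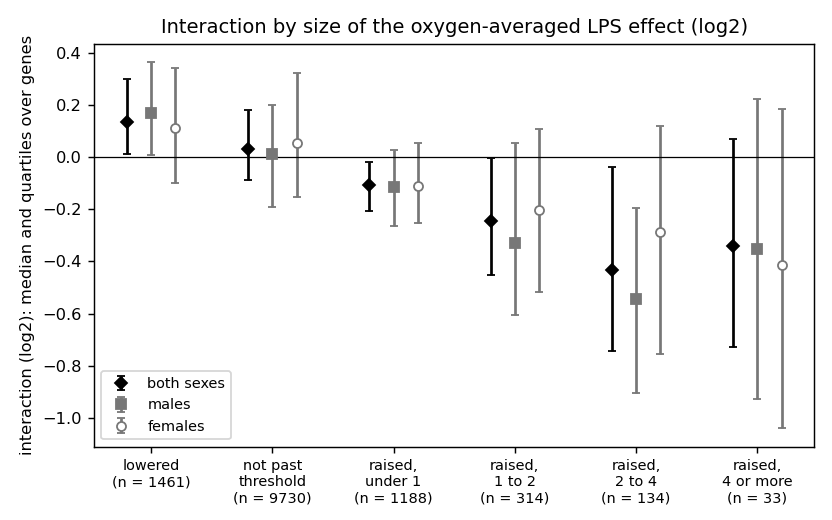
Interaction on the log2 scale (vertical axis) for genes grouped by their LPS effect averaged over oxygen and sex (horizontal axis, log2, n genes per class), with markers at the median over genes and bars from the lower to the upper quartile, for both sexes, males and females. The median was 0.135 for genes lowered by LPS, near 0 for genes that did not pass for LPS, and between -0.11 and -0.43 in the 4 classes of raised genes.

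The size of the LPS response after IH relative to Nx was then put into a single number, the slope across genes of the LPS effect in IH on that in Nx, from differences of group means of log2 CPM (CPM, reads per gene relative to the TMM-scaled total of the sample). The arms share no sample. Over all 12860 genes the slope of IH on Nx was 0.708, with a correlation across genes of 0.845. A slope below 1 is obtained even for equal responses, because error in the Nx effects flattens the line, so the value was read against the slopes obtained when the oxygen labels were exchanged within each sex and injection. Over all 160000 such labellings the median slope was 0.784, and the middle 95% lay between 0.547 and 1.03. The observed slope was within this range (exact permutation test over samples, two-sided, p = 0.533, where the smallest possible is 1.25e-05).

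With the roles exchanged, the slope of Nx on IH was 1.01, above the median of 0.784 for the labellings (exact permutation test, two-sided, p = 0.0743). The major axis, which treats both arms alike and whose median over the labellings was 1, was 0.811 (exact permutation test, two-sided, p = 0.237). The response after IH was thus 0.811 of that in Nx by this measure, a difference from 1 that did not exceed the spread between samples. In males the slope of IH on Nx was 0.576 and the major axis 0.784, and in females they were 0.651 and 0.831 (exact permutation tests over 400 labellings in each sex, p = 0.85, 0.465, 0.81 and 0.375 in that order, where the smallest possible is 0.005). After Benjamini-Hochberg adjustment over these 7 exact permutation tests the lowest p was 0.52, for Nx on IH. The jackknife standard error of the slope over the 24 samples was 0.165.

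Over the 3130 genes that responded to LPS, where noise flattens the line less, the slope of IH on Nx was 0.797, that of Nx on IH 1.15 and the major axis 0.826, with a correlation across genes of 0.956. The major axis was 0.874 over the raised and 0.84 over the lowered genes. In males and in females the slope over the responding genes was 0.748 and 0.793. These are descriptions with no test, and the jackknife standard error of the slope over responding genes, by the same rough formula, was 0.162. Leaving out 1 sample moved this slope between 0.715 (without male Nx LPS replicate 2) and 0.884 (without male IH LPS replicate 3), so each of the 2 weakly responding libraries set 1 end of the range. Without both, it was 0.798, and the slope over all genes was 0.712 (exact permutation test, two-sided, p = 0.246). Without female IH LPS replicate 2 alone, the slope over all genes was 0.766.

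**Figure D2:**
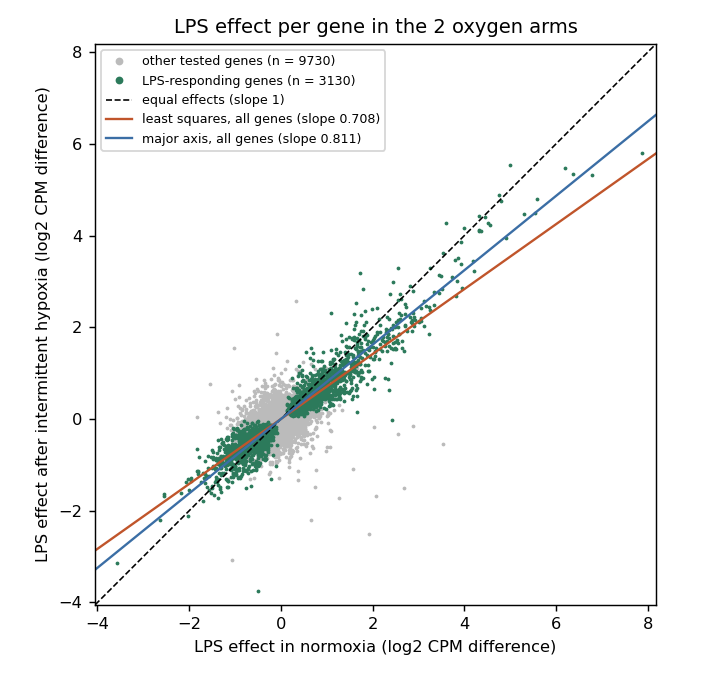
LPS effect after IH (vertical axis) against that in Nx (horizontal axis) for each of 12860 genes, as differences of mean log2 CPM averaged over the sexes, with green points for the 3130 genes responding to LPS on average and gray points for the others. Most strongly raised genes lie below the dashed line of equal effects, and the least squares line has a slope of 0.708 and the major axis one of 0.811.

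Each LPS sample was also placed on this scale by regressing its change from the vehicle mean of its own sex and oxygen group on the LPS effect of the other arm. In Nx the 3 males had slopes of 1.03, 0.584 and 1.14 and the 3 females 1.06, 1.05 and 1.18, a mean of 1.01 ± 0.215 (SD, n = 6). In IH the males had slopes of 0.917, 0.731 and 0.31 and the females 0.843, 0.533 and 0.914, a mean of 0.708 ± 0.242 (SD, n = 6). Each sample was measured against the effect of the other arm, so the scales of the 2 arms differ, a smaller IH effect raises the Nx slopes as it lowers the IH slopes, and the arms are not compared on this measure. The means equal the slopes of the whole arms. On a common scale, the median change of the 1669 raised genes ran from 0.336 to 0.764 on the log2 scale over the Nx LPS samples (median 0.694) and from 0.226 to 0.71 over the IH LPS samples (median 0.521), with wide overlap.

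**Figure D3:**
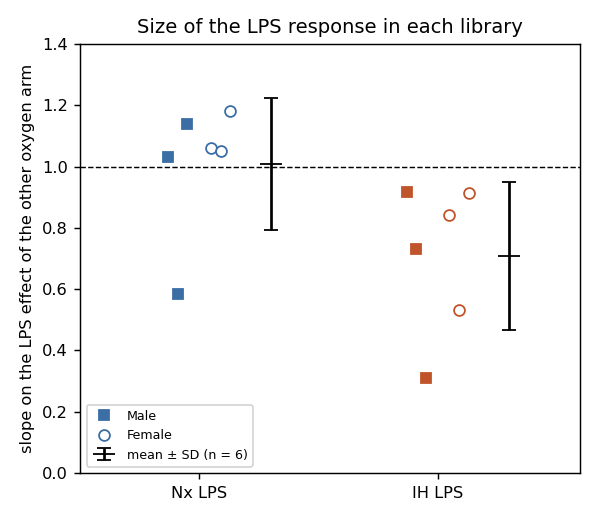
Slope of the LPS response of each of the 12 LPS samples on the LPS effect of the other oxygen arm (vertical axis), for Nx LPS and IH LPS samples (horizontal axis), with filled squares for males, open circles for females and bars for the mean ± SD of 6 samples. The Nx LPS samples other than male replicate 2 (0.584) lie between 1.03 and 1.18, and the IH LPS samples lie between 0.31 and 0.917, on scales that differ between the arms.

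Among genes with a name, the study pairs an identifier with 12 targets of an NF-κB PCR array and with 9 other genes, and all 21 were tested. The study listed them for differences in these same samples, so their direction is not independent evidence. At an unadjusted p below 0.05 in edgeR's quasi-likelihood test there were 5 of the 21, with 4 negative interactions and 1 positive, where 0.669% and 0.747% of all genes reached it in these directions. None of the 21 passed the FDR threshold, and each had an adjusted p of 1. For Csf3, Sele and Cxcl9 at least 1 vehicle group had no count, which leaves the interaction without a finite estimate. Of the 9 other array targets, 8 had a negative interaction and their median was -0.92. Of all genes raised by LPS 78% were negative. By average LPS effect, 3 of the 9 targets were raised by 1 to 2 on the log2 scale, where 75.2% of genes were negative (median -0.25), 3 by 2 to 4 (79.1%, median -0.43) and 3 by 4 or more (66.7%, median -0.34). In males 8 of the 9 were negative (median -0.99) and in females 9 of the 9 (median -0.82), and no three-way difference between the sexes among them had a p below 0.403.

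Il6 and Cxcl10 had the most negative interactions of these 9 targets, and the 250 bases before their starts are shown for the elements through which LPS is known to act on them. The sequences are those of RefSeq for the rat build GRCr8, whereas the files were made on rn6. Capitals mark matches on either strand to GGANNTTCC (reverse complement GGAANNTCC), a form of the NF-κB element, and to GAAANNGAA (reverse complement TTCNNTTTC), a form of the interferon response element. The match in Il6 began 67 bases before the start, and those in Cxcl10 began 243 bases (interferon form), 186 bases and 127 bases (both the NF-κB form) before it.
Il6, chr4:5894576-5894825, minus strand: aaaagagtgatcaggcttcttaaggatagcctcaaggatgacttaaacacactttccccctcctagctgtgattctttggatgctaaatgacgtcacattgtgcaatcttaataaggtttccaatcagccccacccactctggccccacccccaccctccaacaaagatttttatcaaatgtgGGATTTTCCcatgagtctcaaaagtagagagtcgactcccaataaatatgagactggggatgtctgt
Cxcl10, chr14:15988816-15989065, plus strand: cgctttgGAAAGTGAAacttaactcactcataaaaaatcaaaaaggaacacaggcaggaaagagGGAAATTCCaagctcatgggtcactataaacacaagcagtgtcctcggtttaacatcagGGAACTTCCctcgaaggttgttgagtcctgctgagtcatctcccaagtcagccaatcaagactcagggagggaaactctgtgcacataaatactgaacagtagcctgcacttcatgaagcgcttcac
The NF-κB form was present in 3.36% and the interferon form in 8.12% of 33469 promoter windows of this length. Of the 12 array targets, only the 10 with exactly 1 promoter entry were searched. Of these, 4 held the NF-κB form (Il6, Cxcl10, Icam1 and Cxcl1) and 1, Cxcl10, held both. These matches are a description of the windows and not of binding.

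Il6, a cytokine of the acute inflammatory response, had the smallest p of the named genes. Its level in CPM was 0.738, 0.714 and 1.3 in male Nx, 1, 0.279 and 0.983 in female Nx, 8.15, 2.77 and 5.75 in male Nx LPS, and 4.07, 5.64 and 4.13 in female Nx LPS. After IH it was 1.77, 2.41 and 1.4 in males and 1.81, 1.42 and 1.13 in females with vehicle, and 6.33, 5.42 and 2.68 in males and 2.02, 1.92 and 3.11 in females with LPS. In Nx the vehicle and LPS samples were thus fully separate, and so they were in IH within males and within females, although with a smaller gap. The mean with vehicle was 1.66 ± 0.449 CPM in IH and 0.835 ± 0.345 CPM in Nx, and the mean with LPS was 3.58 ± 1.85 CPM in IH and 5.08 ± 1.87 CPM in Nx (SD, n = 6 each). The IH and Nx samples overlapped in both. The LPS effect was 2.57 in Nx and 1.03 in IH on the log2 scale, and the interaction was -1.55 (standard error 0.45, 95% interval -2.49 to -0.61, unadjusted p = 0.00263, adjusted p = 1 with edgeR). It was -1.21 in males and -1.89 in females. These levels rest on 2 to 58 reads per sample.

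Cxcl10, an interferon-induced chemokine that attracts T cells, had the largest LPS effect in Nx of the 9 targets with counts in every group. It lay between 4.42 and 8.71 CPM in the Nx vehicle samples and between 3.99 and 14.1 CPM in the IH vehicle samples. With LPS it reached 2620, 123 and 3190 CPM in Nx males and 2030, 1820 and 2370 CPM in Nx females. After IH it reached 1190, 1010 and 23.1 CPM in males and 689, 440 and 1680 CPM in females. Apart from the weakly responding male Nx LPS replicate 2, the Nx LPS samples were all above the highest IH LPS sample. The interaction was -1.91 (standard error 0.96, 95% interval -3.91 to 0.09, unadjusted p = 0.0605), with -1.87 in males and -1.95 in females. Without both weakly responding libraries the interaction was -1.90 with a standard error of 0.43. These libraries were chosen for their low Cxcl10, which by itself narrows the spread, so no p is given for that fit.

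Irf1, a transcription factor of the interferon response, and Cd83, a surface protein of activated antigen-presenting cells, had high counts in every sample. Irf1 was at 129 to 174 CPM in Nx and 127 to 162 CPM in IH vehicle samples. With LPS it was at 1250, 159 and 1400 CPM in Nx males, 951, 940 and 1340 CPM in Nx females, 614, 782 and 202 CPM in IH males, and 324, 273 and 918 CPM in IH females. The 5 Nx LPS samples other than male replicate 2, which was within the range of the vehicle samples, were again above all IH LPS samples. The interaction of Irf1 was -0.98 (standard error 0.54, 95% interval -2.10 to 0.15, unadjusted p = 0.0848). Cd83 was at 268 to 365 CPM in Nx and 296 to 381 CPM in IH vehicle samples. Its level with LPS was 700, 432 and 1480 CPM in Nx males, 1310, 1540 and 1030 CPM in Nx females, 815, 690 and 421 CPM in IH males, and 624, 679 and 1160 CPM in IH females, with overlap between the arms. Its interaction was -0.62 (standard error 0.32, 95% interval -1.30 to 0.05, unadjusted p = 0.0664).

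**Figure D4:**
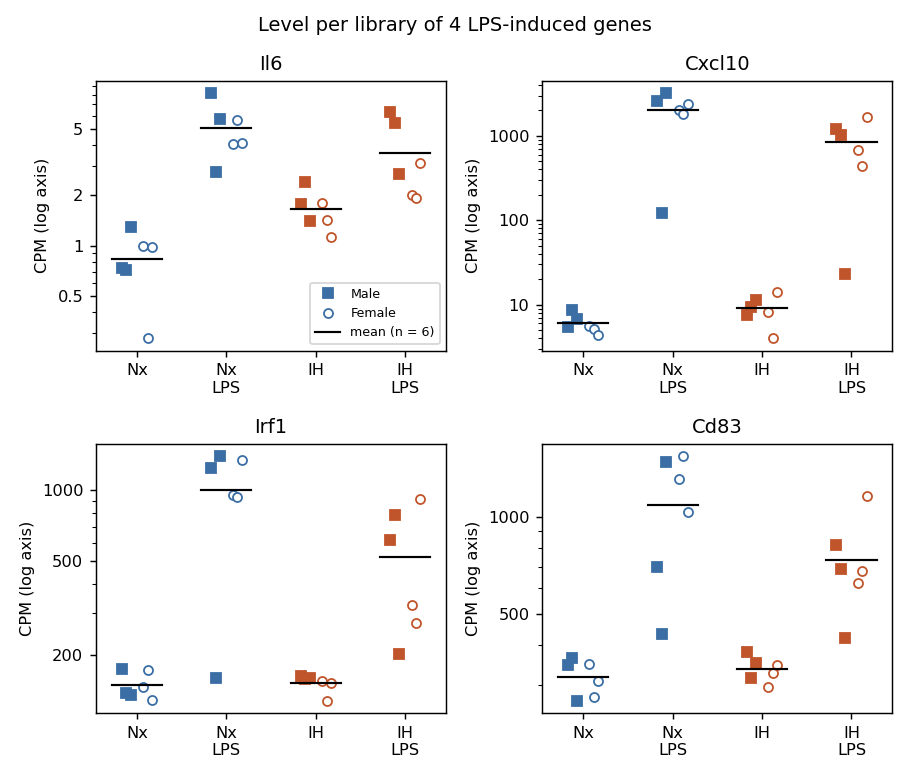
Levels of Il6, Cxcl10, Irf1 and Cd83 in each sample in CPM (vertical axis, logarithmic) for Nx, Nx LPS, IH and IH LPS samples (horizontal axis), with filled squares for males, open circles for females and a line at the mean of 6 samples. The mean with LPS was lower after IH than in Nx for each gene, from 2030 to 839 CPM for Cxcl10 and from 5.08 to 3.58 CPM for Il6, and 1 male sample of each arm was far below the other LPS samples for Cxcl10 (123 and 23.1 CPM).

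Il1a, a cytokine released by damaged and activated cells, ranged from 20.6 to 117 CPM over the Nx LPS samples (median 82) and from 19 to 46.7 CPM over the IH LPS samples (median 40.2), while the vehicle samples ranged from 6.28 to 33.4 CPM in Nx and from 5.41 to 24.6 CPM in IH. Its interaction was -0.92 (standard error 0.63, unadjusted p = 0.162). Icam1, an adhesion molecule for leukocytes, ranged from 229 to 1560 CPM with LPS in Nx (median 1260) and from 228 to 1290 CPM in IH (median 663), with an interaction of -0.67 (standard error 0.47, unadjusted p = 0.174). Birc3, an inhibitor of apoptosis that is also a regulator of NF-κB signaling, lay between 0.278 and 1.23 CPM in all vehicle samples. With LPS it was between 12 and 161 CPM in Nx (median 127) and between 6.51 and 95.3 CPM in IH (median 51.9), so that in 5 of 6 Nx samples it exceeded every IH sample. The interaction of Birc3 was -0.95 with a standard error of 1.08 (unadjusted p = 0.389).

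Ptgs2, the inducible cyclooxygenase, and Cxcl1, a chemokine for neutrophils, had low counts and wide intervals. Ptgs2 ranged from 2.08 to 26.7 CPM with LPS in Nx and from 1.02 to 17.9 CPM in IH, with an interaction of -0.88 (standard error 1.15, unadjusted p = 0.454). Cxcl1 ranged from 1.66 to 41.3 CPM with LPS in Nx and from 1.66 to 43.2 CPM in IH, with an interaction of 0.07 (standard error 0.99, 95% interval -1.98 to 2.13). Without male IH LPS replicate 2, the highest sample at 43.2 CPM, the interaction of Cxcl1 was -0.74, and it was also negative in 11 other fits that left out 1 sample.

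Csf3, the growth factor of granulocytes, had no count in any of the 12 vehicle samples. With LPS it was at 13.9, 0.138 and 4.89 CPM in Nx males, 5.13, 4.61 and 3.73 CPM in Nx females, 0.775, 9.31 and 1.02 CPM in IH males, and 1.79, 1.54 and 1.82 CPM in IH females. All 3 IH females were thus below all 3 Nx females, and the males overlapped. Sele, an adhesion molecule of activated endothelium, had 1 read in each of 2 vehicle samples and none in the others. With LPS its level was 2.49 to 22.4 CPM in Nx and 0.595 to 36.1 CPM in IH. Cxcl9, a chemokine induced by interferon gamma, was at 0.415 to 10.8 CPM with LPS in Nx and 0.128 to 11 CPM in IH, and it had 1 read in each of 2 IH vehicle samples. No ratio to these vehicle levels is given, since they were at or under 3 reads.

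**Figure D5:**
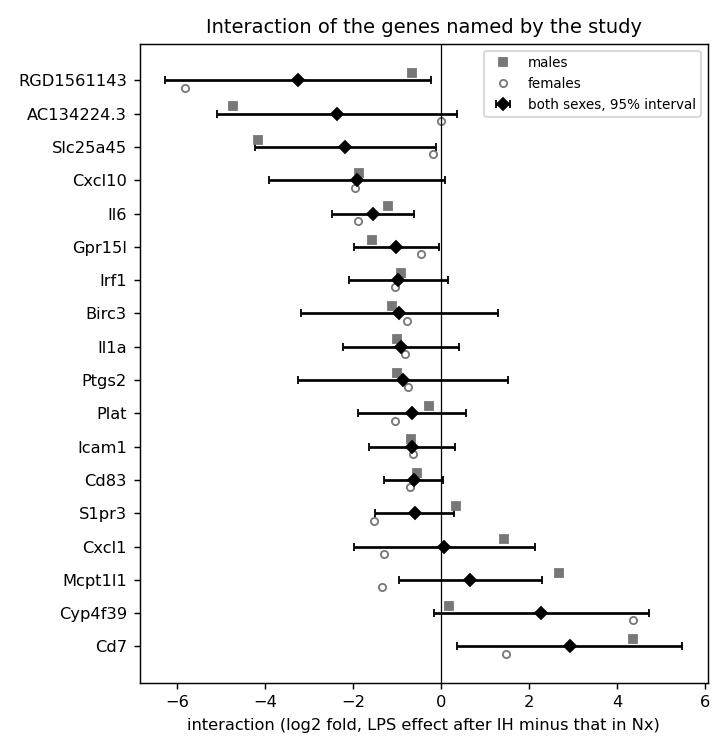
Interaction on the log2 scale (horizontal axis, the LPS effect after IH minus that in Nx) of 18 genes named by the study that had counts in every group, with diamonds and bars for the estimate over both sexes and its 95% interval, gray squares for males and open circles for females. Of the array targets, Il6 alone has an interval that excludes 0 (-2.49 to -0.61). The males and females lie close together for most array targets and far apart for AC134224.3, Slc25a45, RGD1561143, Cyp4f39 and Mcpt1l1.

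Leaving out both weakly responding libraries, an alternative applied to the named genes after their values were seen, changed how many reached an unadjusted p below 0.05. Of all 21 named genes, 5 did so with all samples and 6 without the 2 libraries. The 9 other named genes went from 4 to 1, as Cd7, RGD1561143 and Slc25a45 no longer reached it and Gpr15l did. Of the 12 array targets, 1 did so with all samples (Il6) and 5 did so without the 2 libraries, namely Il6, Cxcl10, Irf1, Icam1 and Cd83, with interactions from -0.67 to -1.90. The libraries were chosen for low Cxcl10, and Irf1, Icam1 and Cd83 were also lowest in them within each LPS arm, so this rise in the count is no support for a difference. Male Nx LPS replicate 2 also had the lowest Il6 of the Nx LPS samples (2.77 CPM). No p is therefore given for these 5 targets without the libraries. The count of array targets also moved with single samples and with the method. It was 5 without male Nx LPS replicate 2 alone, 4 without female IH LPS replicate 3, 3 without male IH LPS replicate 1, and 1 or 2 in the other fits that left out 1 sample. With all samples it was 2 with edgeR's likelihood ratio test, 2 with DESeq2, 3 without the filter and 6 with limma-voom and sample weights. Without both weakly responding libraries the interactions moved little, from -0.98 to -1.03 for Irf1 and from -0.62 to -0.67 for Cd83. None of them passed after adjustment over all genes, and over all genes 307 had an unadjusted p below 0.05 in that fit, with 0 past the FDR threshold.

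The 9 other named genes, which the study lists for differences with IH in one sex, were spread from -3.24 to 2.92. Gpr15l, a secreted ligand of the receptor GPR15, had an interaction of -1.02 (standard error 0.47, unadjusted p = 0.0407). It was higher in IH vehicle males (17.5, 21.7 and 22.3 CPM) than in the other vehicle samples (3.81 to 7.88 CPM), and in IH LPS males it was at 6.07, 3.75 and 18.8 CPM. In Nx LPS it was at 6.6, 5.54 and 16.8 CPM in males and 9.51, 6.15 and 4.53 CPM in females, and in IH LPS females at 5.6, 4.49 and 6.22 CPM. The LPS samples near the IH vehicle males were thus male Nx LPS replicate 3 and male IH LPS replicate 3. Without both weakly responding libraries, of which the latter is 1, the interaction was -1.63. Male IH LPS replicate 3 was the highest IH LPS sample of this gene. Leaving it out by itself makes the interaction more negative and narrows the spread, so no p is given for that fit. S1pr3, a receptor for sphingosine 1-phosphate, had an interaction of -0.60 over both sexes (standard error 0.43), of 0.33 in males and of -1.53 in females, and the difference between females and males was -1.86 (unadjusted p = 0.0433, adjusted p = 1). Plat, the tissue plasminogen activator, had an interaction of -0.67 (standard error 0.59, unadjusted p = 0.274). Mcpt1l1, which belongs to a family of mast cell proteases with similar copies, so that its reads may be shared, had an interaction of 0.66 (standard error 0.78), of 2.68 in males and of -1.35 in females, with a sex difference of -4.03 (unadjusted p = 0.0179, adjusted p = 1).

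Slc25a45, a member of the mitochondrial carrier family, and AC134224.3 had interactions of -2.17 (unadjusted p = 0.0394) and -2.37 (unadjusted p = 0.0851), and each had 2 separate levels over the 24 samples. Without both weakly responding libraries they were -1.72 (unadjusted p = 0.104) and -1.997 (unadjusted p = 0.137). AC134224.3 was either at 19.8 CPM or less, or at 168 CPM or more, and Slc25a45 either at 4.21 CPM or less, or at 23.6 CPM or more. The low level of both was in the same 8 samples, 4 of 6 in Nx, 0 of 6 in Nx LPS, 2 of 6 in IH and 2 of 6 in IH LPS. Their interactions therefore count in which samples the low level fell, and the interaction was -4.16 in males and -0.19 in females for Slc25a45. Cyp4f39, a cytochrome P450 of a family with similar copies, was likewise either at 0.285 CPM or less or at 2.18 CPM or more, with the low level in 1 of 6 Nx, 1 of 6 Nx LPS, 5 of 6 IH and 0 of 6 IH LPS samples. Its interaction was 2.27 (standard error 1.17, unadjusted p = 0.0668). These limits between levels were set after the values were seen.

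Cd7, a surface protein of T and natural killer cells, had the most positive interaction of the named genes, 2.92 (standard error 1.23, unadjusted p = 0.0271), and 2.48 without both weakly responding libraries (unadjusted p = 0.0801). It was at 2.97, 14 and 25.5 CPM in IH LPS males and 2.86, 27.4 and 9.33 CPM in IH LPS females. In the other groups 3 samples stood out, male Nx replicate 2 at 41 CPM, female Nx LPS replicate 2 at 15.2 CPM and male IH replicate 2 at 22.6 CPM, and the others ranged from 0.933 to 4.88 CPM. RGD1561143 had the most negative interaction, -3.24 (standard error 1.45, unadjusted p = 0.0366), which was -2.81 without both weakly responding libraries (unadjusted p = 0.0742). It ranged from 0 to 135 CPM, with an interaction of -0.67 in males and -5.82 in females. Other markers of lymphocytes could not be named in these files, and the part that lymphocytes among the isolated cells had in the values of Cd7 was not tested.

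Among genes without a name, the 2 of lowest p on either side of 0 are given, and they missed the threshold like the rest. ENSRNOG00000014739 had the smallest p of all tested genes (interaction -2.57, standard error 0.67, unadjusted p = 0.00099). It ran from 0 to 0.716 CPM in Nx, from 0.533 to 1.29 CPM in Nx LPS, from 0.285 to 1.52 CPM in IH, and from 0.129 to 0.898 CPM in IH LPS, so LPS went with a higher mean in Nx and a lower one in IH, with overlap in both and on at most 12 reads per sample. ENSRNOG00000009528 had an interaction of -3.73 (standard error 1.03, unadjusted p = 0.00161), with 1.11 to 5.06 CPM in Nx LPS, above all samples of the other groups, which were at 0 to 0.778 CPM. It passed the filter on low counts only through the Nx LPS samples, the group that also sets its interaction, so its p is no support for a difference. The same limit applies to ENSRNOG00000014739, which passed through Nx LPS and IH samples. In the positive direction, ENSRNOG00000016483 had an interaction of 1.76 (standard error 0.51, unadjusted p = 0.00239). It ran from 0.286 to 1.53 CPM in Nx, 0.133 to 0.969 CPM in Nx LPS, 0.278 to 0.762 CPM in IH and 0.476 to 1.03 CPM in IH LPS. It passed the filter mainly through the Nx samples, a group that also sets its interaction, so its p is no support for a difference either. ENSRNOG00000032922 had an interaction of 0.82 (standard error 0.25, unadjusted p = 0.00325). It was the best counted of the 4, at 11.8 to 16.3 CPM in Nx and 6.26 to 8.45 CPM in Nx LPS, which did not overlap, and at 9.18 to 13.4 CPM in IH and 6.51 to 13.5 CPM in IH LPS, which did.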

How the data were processed

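RNA was sequenced from 24 microglial samples, 3 in each of 8 groups of sex, oxygen and injection. The authors prepared stranded mRNA libraries, aligned the reads to rn6 with TopHat2 2.1, counted them per Ensembl gene with HTSeq and deposited the raw counts, which are whole numbers that were neither normalized nor filtered. Groups came from the sample labels, and no batch or date is labeled.

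Records that name no gene (28.86% to 38.33% per sample) were dropped, and 12860 of 32754 genes with CPM above 1 in at least 3 samples were kept. Counts were analyzed in R 4.3.3 with edgeR 4.0.16 (TMM, 8 group means, quasi-likelihood F test, Benjamini-Hochberg adjustment, FDR threshold 0.05). Standard errors are fold changes divided by the root of F. Slopes used log2 CPM with a prior count of 2 and were tested by exact permutation of oxygen labels within sex and injection, with p as 2 times the smaller tail. Each sample's total of at least 6624453 reads limits the precision, and genes under about 1 CPM rest on few reads.

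Alternatives were edgeR's likelihood ratio test, DESeq2 1.42.0, limma 3.58.1 (voom with sample weights), RLE scaling, other filters, prior counts and regressions, an additive sex term, a replicate block, each sample left out in turn, and the 2 weakly responding LPS libraries left out. The members, gene lists, these 2 libraries and the tests were chosen with earlier results of these data known. The code was tested on simulated data.

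Named were the genes the study pairs with an identifier and 2 unnamed genes of smallest p in each direction. The rule had asked for 8 genes in each direction, the qPCR transcripts and members of gene lists. Of 251 symbols on 25 lists, markers of cell types included, 21 had an identifier, so the lists were not analyzed here. Promoter sequences were read with Python 3.11.15 and figures drawn with matplotlib 3.10.9.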

Additional observations from a re-analysis of the deposited data

Results flagged for a closer look

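In a group of 6 samples of one oxygen arm and injection, a sample was set apart when its gap to the nearest other sample was large for the whole range of the group (Dixon's 95% limit). This held in 25 of 122 groups, where chance gives about 1 in 20. Among the vehicle samples, male Nx replicate 2 was high for Cd7 (41 CPM), RGD1561143 (135 CPM) and the share of alignments to more than 1 place (23.37%). Male IH replicate 2 was high for Cyp4f39 (5.19 CPM) and Cd7 (22.6 CPM). Female IH replicate 2 was high for Mcpt1l1 (65.7 CPM), low for Irf1 (127 CPM) and had the single read of Sele in its group (0.142 CPM). Female Nx replicate 1 had the single read of Sele in its group (0.143 CPM) and was low for ENSRNOG00000016483 (0.286 CPM).

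Of the LPS samples, male Nx LPS replicate 2 was low for Birc3 (12 CPM), Irf1 (159 CPM), Icam1 (229 CPM), the slope on the other arm (0.584) and the median change of the raised genes (0.336 on the log2 scale), and high for Slc25a45 (50.8 CPM). Male Nx LPS replicate 1 was high for Plat (114 CPM), Csf3 (13.9 CPM) and ENSRNOG00000009528 (5.06 CPM). Male IH LPS replicate 2 was high for Csf3 (9.31 CPM), Cxcl1 (43.2 CPM) and Sele (36.1 CPM). Male IH LPS replicate 3 was high for Gpr15l (18.8 CPM). Female Nx LPS replicate 2 was high for Cd7 (15.2 CPM), and female Nx LPS replicate 3 was low for ENSRNOG00000032922 (6.26 CPM).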

How the results depend on the processing

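The number of genes past the FDR threshold was 0 for the interaction, and 0 for its sex difference, under each alternative run. With single samples left out, the slope of IH on Nx over all genes and both sexes lay between 0.624 and 0.794. It was 0.576 in males alone, and the value of 1.01 belongs to the slope of Nx on IH, a different measure. At an unadjusted p below 0.05 the interaction gave 1507 genes with limma-voom and sample weights (645 positive, 862 negative), 299 of 19677 genes without the filter, and 307 without the 2 weakly responding libraries. With single samples left out it gave 123 to 464 genes, with 464 without male Nx LPS replicate 2 and 345 without male IH LPS replicate 1. The slope over responding genes was 1.15 with the roles of the arms exchanged. Among named genes, Ptgs2 reversed to 0.42 with limma-voom. Cxcl1 reversed to -0.0077 with the replicate block and ran from -0.74 to 1.99 with single samples left out. For Sele, whose vehicle groups without counts leave no finite estimate, the number returned by the fit ran from -1.69 to 0.29 and its sign carries no information. The cause of these changes was not tested.

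The replicate numbers were not shown to pair the samples. The deviations of same-numbered samples from their group means had a mean correlation of 0.0503 over 84 pairs, from -0.57 to 0.487. For samples of other numbers the mean was -0.0253 over 168 pairs, from -0.61 to 0.589. The correlation was above 0.1 in 37 of the 84 and in 47 of the 168 pairs, and this difference was not tested. With the replicate number as a block, 0 genes passed the threshold, 191 had an unadjusted p below 0.05, and the slope over all genes was 0.708 (exact permutation test, p = 0.394). The block changed no call. With 3 samples per group, and few reads for Il6, Csf3, Sele and Cxcl9, the depth and number of samples limit what single genes could show.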
